A study of Homo sapiens with 20 samples.

Results

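The MYC network transcription factors examined here are 10 genes taken by name: MYC, MYCN and MYCL, their partner MAX, and the MAX partners MXD1, MXI1, MXD3, MXD4, MNT and MGA. A peak was assigned to a member when its summit, the base of highest enrichment, lay in an exon of any annotated transcript of that gene on hg38. Of the 10 genes, 8 carried at least 1 such peak, among 13976 genes in the whole series that did. The 8 genes held 239 exonic summits, which fell in 41 of the 43676 merged regions built from all the peak lists, and 29269 of those regions were exonic in at least 1 gene. Below, the regions of a gene are numbered from its 5′ end. The representative transcript of a gene is its MANE Select transcript, or for MGA the Ensembl canonical one.

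The libraries came from methylated RNA immunoprecipitation sequencing (MeRIP-seq), in which RNA fragments carrying N6-methyladenosine (m6A) are pulled down with an antibody and compared with input RNA that saw no antibody. T24 is a human bladder cancer cell line that is sensitive to cisplatin, and T24R2 was derived from it by serial exposure to the drug and is resistant. Both lines carry the genotype label WT, were grown in RPMI with fetal bovine serum and were collected at day 3, and each gave 5 IP and 5 input libraries. Each group is a lone cell line, so an effect of resistance and any other difference between the lines cannot be told apart. The T24R2 line was also kept in cisplatin-containing medium according to the methods of the study, and the labels do not say whether the 5 replicates are separate cultures, so the p-values measure only the spread between these libraries.

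MYC, MYCN and MYCL are basic helix-loop-helix leucine zipper proteins that bind E-box DNA and activate transcription only as dimers with MAX. MXD1, MXI1, MXD3, MXD4, MNT and MGA compete for the same partner, and most of them recruit corepressors to the same sites, so growth and differentiation depend on the balance between both arms. MYC messenger RNA is short-lived, and m6A, which is written mostly in coding sequence and 3′UTRs near stop codons, is known to affect the stability and translation of transcripts.

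Peaks were called separately in each IP library against input, and the lists held 17203 to 33120 peaks, with every T24R2 list but 1 longer than the longest T24 list (22901 peaks). They hold no read counts, so sequencing depth is unknown and the absence of a peak does not separate an unmethylated transcript from one too rare to be tested. No peak row was shared between lists. Of 15 epithelial markers 6 carried an exonic peak somewhere: KRT7 and FOXA1 did in 10 of 10 libraries and GATA3 in all 5 of T24 but in none of T24R2, while KRT5, KRT8, EPCAM and CDH1 had none. The mesenchymal markers CDH2 and VIM had peaks in 10 and 9 libraries and FN1 in none, both blood markers (PTPRC and CD3E) had none, and of the endothelial markers PECAM1 had peaks in all 10 and VWF in none. Peak presence is not expression, so the labelled cell type could be checked only to this extent. Enrichment is given here as the percentile of a peak's fold enrichment within its own library's list, where 100 is the highest peak of the list.

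The sequences around the summits are shown for 3 regions that were called in every library and 4 that were called in T24R2 libraries alone, chosen after their values were seen. The former are MXD1 region 1 and MGA region 1, which had the largest differences in percentile relative to their SE, and the highest-ranked MNT region, and the latter are regions absent from T24. Not shown are MXD1 region 2, which holds no consensus motif within 50 nt of its median summit, and MXD4 region 4, whose summits lie in separate clusters. Also not shown are MAX region 2 and MXD4 region 1, which hold a motif and were called in 3 T24R2 and 0 T24 libraries. Each is 25 nt of the transcribed strand of hg38 centred on the A of a m6A consensus motif near the median summit. Capitals mark the motif, which is named DRACH and reads A, G or T, then A or G, then AC, then A, C or T.

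MXD1 region 1 (chr2:69938115-69938139, + strand, coding part of the last exon): tggagagcacGGACTatctcacagg
MNT region 1 (chr17:2395233-2395257, - strand, coding exon 2): atccctgtggTGACCaactcccctc
MGA region 1 (chr15:41669604-41669628, + strand, coding exon 2): cagcttatcaGAACAttcagattac
MXD4 region 2 (chr4:2254984-2255008, - strand, exon of a retained-intron transcript): tggtgagcgcAGACCtttgtggatc
MGA region 6 (chr15:41736498-41736522, + strand, coding exon 13): tctggatcagAGACTcctgatggtc
MXD1 region 3 (chr2:69940425-69940449, + strand, 3′UTR): caaaagctcaAGACTttggaaaaag
MNT region 6 (chr17:2384653-2384677, - strand, 3′UTR): tcaccctgtgGGACCgcctggccct

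The motif A lay 7, 1 and 45 nt from the median summit in the first 3 of these and 3, 21, 12 and 10 nt from it in the others. Of the 38 member regions whose exonic genes lie on 1 strand, 31 (81.6%) had a DRACH motif on the transcribed strand within 50 nt of the median summit and 29 (76.3%) had one on the opposite strand. The shares over the 27505 exonic regions of that kind in the series were 89.1% and 72.3%. The stronger forms were GGAC, in 21 member regions (55.3%, against 46.0% of all), and within it GGACT, in 8 (21.1%, against 16.3%), both counted on the transcribed strand. A motif match is a description of the sequence and does not place the methylated base.

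**Figure D1:**
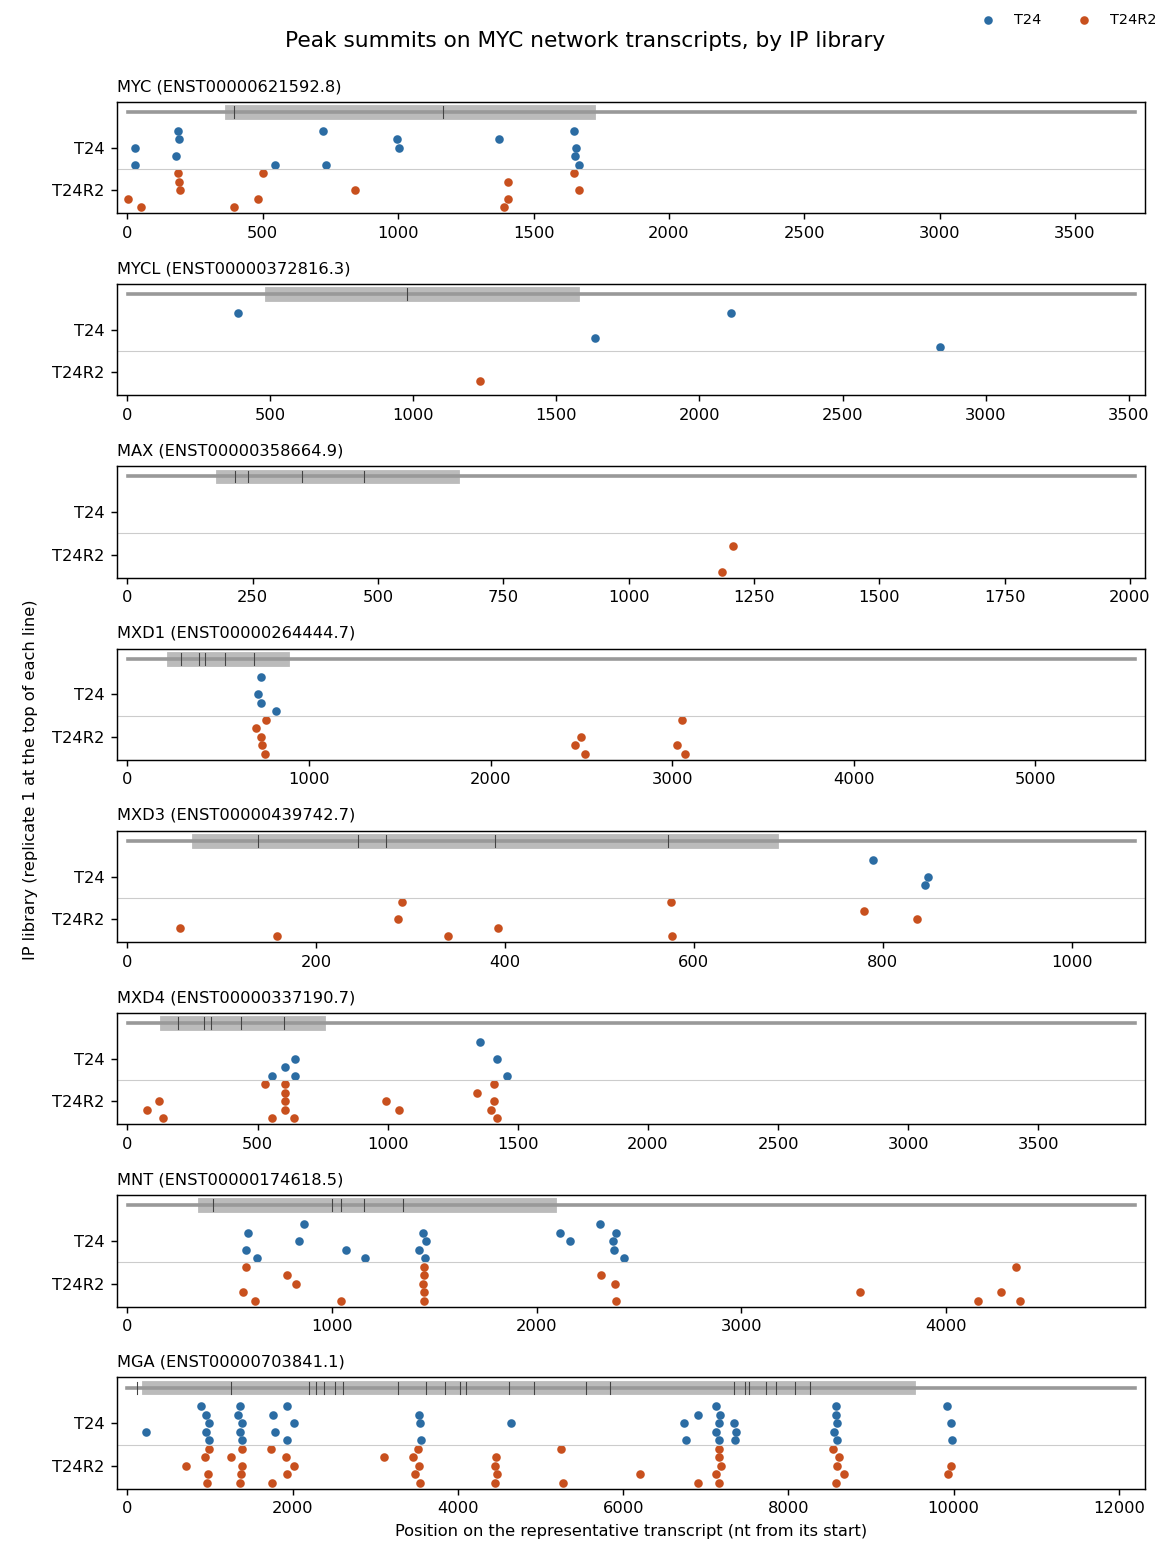
Each dot is the summit of 1 peak in 1 IP library (blue, T24; orange, T24R2; replicate 1 at the top of each line), plotted by its position in nt from the start of the representative transcript of the 8 genes with exonic peaks. The grey box is the coding sequence, the grey line the whole transcript and the ticks exon junctions, and the 34 summits that lie only in exons of other transcripts are not drawn; MXD1 and MNT have summits far into the 3′UTR in T24R2 libraries only.

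MYC exons held peaks in the same 3 regions in both lines, and all 3 regions were called in 10 of 10 libraries. Region 1 lay in the 5′UTR in exon 1, with summits at nt 4 to 194 of the 3721-nt transcript. Region 2 lay in exon 2, where its 14 summits included 9 in the coding sequence of the representative transcript, and an exon of CASC11, a noncoding gene on the opposite strand, also spans it. The lists carry no strand, so for region 2 MYC and CASC11 cannot be told apart. Region 3 lay in exon 3 with all 10 summits in coding sequence, the median at nt 1650, and the coding sequence ends at nt 1728. These summits fell into 2 groups, at nt 1650 to 1668 in 4 T24 and 2 T24R2 libraries and at nt 1372 to 1404 in the other libraries, so both positions were seen in both lines.

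Although MYC was called in every library, the enrichment of its regions 1 and 3 ranked low in each list. MYC region 1 stood at percentiles 3.45, 8.71, 4.97, 15.0 and 10.9 in T24 replicates 1 to 5 and at 11.2, 0.468, 25.2, 14.9 and 7.19 in T24R2 replicates 1 to 5. MYC region 3 stood at 9.19, 20.6, 13.1, 16.6 and 11.8 in T24 and at 9.48, 7.70, 11.2, 21.9 and 28.3 in T24R2. Every one of these 20 values was below 30, and the lines overlapped in both regions. MYC region 2 was more scattered, at 1.94, 5.11, 12.9, 27.6 and 12.7 in T24 and at 2.36, 29.0, 30.4, 3.66 and 52.9 in T24R2, where 2 libraries stood below 4 and the other 3 between 29.0 and 52.9.

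Among the 9577 regions called in all 10 libraries, whose mean percentile had a median of 66.0, only 1.89%, 3.97% and 2.94% had a lower mean than MYC regions 1, 2 and 3. The low rank concerned fold enrichment, and only region 3 ranked high by the strength of the call in both lines. By −log10 q, the significance of the peak, MYC region 3 stood at percentile 71.2 ± 9.15 in T24 and 79.2 ± 7.82 in T24R2 (SD, n = 5). Region 1 stood at 30.4 ± 12.8 in T24 and 43.2 ± 21.1 in T24R2, and region 2 at 35.8 ± 17.3 and 60.1 ± 21.2. The fold enrichment itself was 4.32 ± 0.318 in T24 and 4.34 ± 0.730 in T24R2 for region 3.

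**Figure D2:**
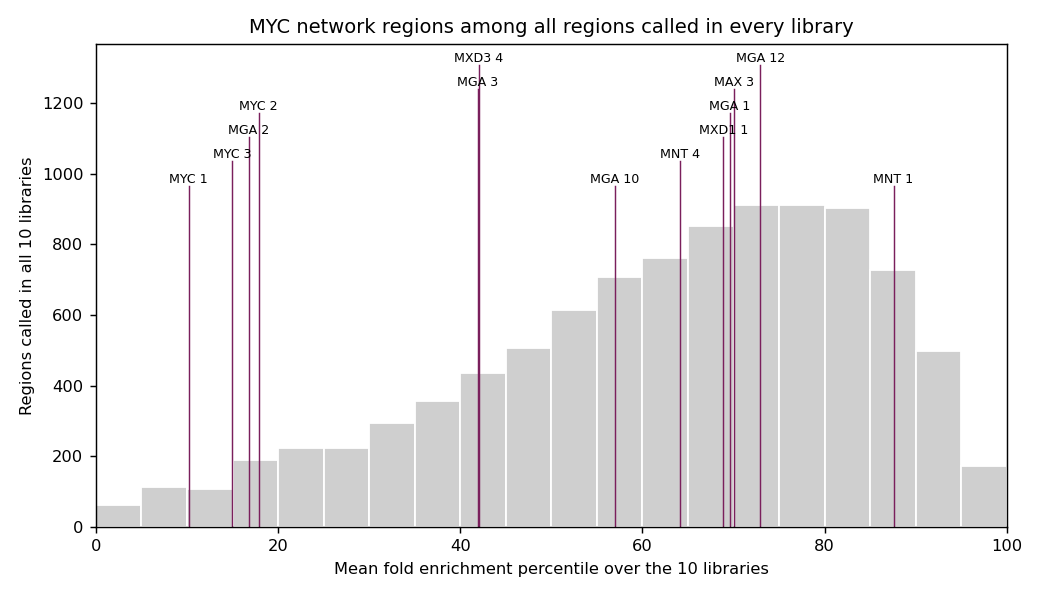
Bars count the 9577 regions called in all 10 libraries by their mean fold enrichment percentile (x axis, bins of 5 points), and the labelled lines mark the 13 member regions among them. The 3 MYC regions and MGA region 2 lie below 20 at the left, and MNT region 1 lies at 87.6 at the right.

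MYCL, which is expressed in fewer tissues than MYC, showed no place that libraries shared. It had 5 regions, each called in a lone library, spread over its 5′UTR, coding sequence and 3′UTR, with percentiles between 13.0 and 64.6. Peaks were present in 3 of 5 T24 and 1 of 5 T24R2 libraries, which did not differ (Fisher's exact test, two-sided, p = 0.524). MYCN, the neural paralogue, carried no exonic or intronic peak in any of the 10 libraries.

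MAX, the shared partner, had an exonic peak in every library, but not on its representative transcript. In 9 libraries that peak was in MAX region 3 (chr14:65061230-65062277, - strand), whose exonic summits lie in an exon of a transcript annotated for nonsense-mediated decay, and which overlaps exons of FNTB and CHURC1-FNTB on the opposite strand. Without strand, the source gene of this peak cannot be told apart either. In T24R2 replicate 5 the region was called, but no summit lay in the MAX exon. The percentiles of the region were 79.4, 78.9, 88.2, 83.5 and 45.0 in T24 and 80.8, 70.2, 39.1, 83.3 and 52.1 in T24R2, with 1 low library in T24 and 2 in T24R2.

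On the representative MAX transcript a peak was present only in T24R2 replicates 2 and 5, in the 3′UTR (region 1, percentiles 8.57 and 37.7). MAX region 2, in another exon of the same decay-annotated transcript alone, was called in T24R2 replicates 2, 3 and 5 at 22.0, 74.0 and 53.1 and in no T24 library. Neither count passed Fisher's exact test (two-sided, p = 0.444 and 0.167).

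The MXD genes encode repressors that compete with MYC for MAX, and MXD1 is known to rise as cells differentiate. MXD1 had 1 constant region, in the coding part of the last exon with its median summit at nt 738, near the GGACT shown above, in a coding sequence that ends at nt 888. In T24 replicate 2 the region was called with its summit outside the exon. Its percentiles were 73.8, 29.1, 37.6, 91.6 and 56.5 in T24 and 85.4, 72.7, 66.3, 78.8 and 97.1 in T24R2. All 5 T24R2 libraries were above the T24 median, but the ranges overlapped, and the difference of 22.4 ± 11.7 points (SE) did not pass (limma adjusted p = 0.423). That fit includes T24 replicate 2, and without it the difference was 15.2 points (limma adjusted p = 0.636).

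In the long 3′UTR of MXD1, peaks were called in T24R2 only. Region 2, with summits 2463 to 2520 nt from the transcript start, was called in T24R2 replicates 3, 4 and 5 at percentiles 81.6, 58.2 and 38.6. Region 3, with summits 3026 to 3070 nt from the start, was called in replicates 1, 4 and 5 at 51.6, 42.3 and 48.7. Each count, 0 of 5 against 3 of 5, gave p = 0.167 in Fisher's exact test (two-sided).

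MXD3 had 5 regions, of which region 4 was called in all libraries and spanned the last 2 exons. Its summits moved among coding sequence (3), the 3′UTR (5) and exons of other transcripts only (2), and its percentiles ran from 4.23 to 66.3 in T24 and from 13.0 to 73.2 in T24R2. MXD3 region 3, with 3 of its 7 summits in exon 4 and the others in exons of other transcripts, was present in T24 replicates 4 and 5 and in all 5 T24R2 libraries (Fisher's exact test, two-sided, p = 0.167), at percentiles of 34.0 and 10.6 against 6.90 to 49.0. MXI1, the remaining member of this family, carried no peak in any library.

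MXD4 had the largest difference between the lines in exonic peaks per library of the 8 genes with peaks. MXD4 region 2 (chr4:2254874-2255307, 434 bp) was called in no T24 library and in every T24R2 library, at percentiles 58.4, 30.7, 45.9, 58.2 and 69.0 and fold enrichments of 7.30, 6.02, 6.14, 7.81 and 8.65. By −log10 q it stood lower, at percentiles 39.9, 15.3, 25.7, 47.8 and 55.7, where replicates 2 and 3 were lowest on both measures. It lies in an exon of a retained-intron transcript and in an intron of the representative transcript. Fisher's exact test (two-sided) gave p = 0.00794, the smallest that 5 against 5 allows, and p = 0.195 after Benjamini-Hochberg adjustment over all 43676 regions. A call in every library of T24R2 and none of T24 was found in 3.02% of all merged regions and 2.56% of exonic regions, and the opposite in 1.05% and 1.04%. With every list reduced to its 17203 strongest peaks, the length of the shortest, the region remained in 3 of 5 T24R2 libraries (Fisher's exact test, two-sided, p = 0.167), and at −log10 q of at least 10 in 2 of 5 (p = 0.444 by the same exact test).

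MXD4 region 4, across the last coding exon and the 3′UTR, had 2 recurrent summit clusters. The coding cluster, at nt 604 to 645, was present in 3 of 5 T24 and 5 of 5 T24R2 libraries, and so was the 3′UTR cluster, at nt 1343 to 1459. The highest peak of the region stood at 54.8, 47.7, 25.6 and 10.6 in T24 replicates 1, 3, 4 and 5, with none in replicate 2, and at 84.1, 59.3, 82.9, 64.2 and 92.3 in T24R2. Among the libraries with a peak, the lowest T24R2 library was above the highest T24 library. How often regions missing from a library separate in this way was not computed. The value of T24 replicate 4 came from the coding cluster and the others from the 3′UTR cluster. In the coding cluster the lines overlapped. It stood at 16.7, 25.6 and 5.72 in T24 replicates 3, 4 and 5. In T24R2 replicates 1 to 5 it stood at 15.8, 8.15, 12.8, 32.1 and 7.28. In the fit that admits regions called in at least 3 libraries of each line, the difference was 41.9 ± 11.0 points (SE, limma adjusted p = 0.112).

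MXD4 region 1, at the start codon, was called in T24R2 replicates 3, 4 and 5 at 83.6, 73.4 and 28.8 and in no T24 library. Region 3, in coding exon 5, appeared in T24 replicate 5 and in T24R2 replicates 1 and 5.

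MNT, the most broadly expressed MAX-binding repressor, carried the highest-ranked region of the network. MNT region 1, in coding exon 2, stood at 70.8, 84.6, 90.4, 94.7 and 91.9 in T24 and at 89.1, 89.6, 96.1, 72.7 and 95.7 in T24R2. Its mean of 87.6 was above that of 89.5% of regions called in all libraries, and the difference between the lines was 2.15 ± 7.17 points (SE, limma adjusted p = 0.929).

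MNT region 4 held 19 summits, and an exon of an unnamed gene on the opposite strand also overlaps it. Without strand, the source gene of these peaks cannot be told apart. On the MNT transcript the 9 summits in coding sequence lay at nt 1426 to 1460 and the 10 in the 3′UTR at nt 2114 to 2429. The coding sequence ends at nt 2097. The percentiles of the region were 68.9, 63.0, 29.6, 50.2 and 83.3 in T24 and 39.6, 86.0, 84.3, 51.0 and 85.4 in T24R2, which overlapped. Further into the 3′UTR, MNT region 6 was called in T24R2 replicates 1, 4 and 5 at 13.9, 22.1 and 54.8 and in no T24 library (Fisher's exact test, two-sided, p = 0.167). MNT also had 17 peaks in introns, 6 in T24 and 11 in T24R2, counts that stand without a background over all genes. They include peaks of MNT region 2, where only 2 of 6 summits lay in an exon. Region 3, mostly in the exon of a retained-intron transcript, stood at 4.41 in T24 replicate 5 and at 12.7, 2.27 and 1.08 in T24R2 replicates 1, 4 and 5.

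MGA, a very large protein that joins MAX binding to a T-box domain and to a Polycomb-type complex, held the most regions, 12 over a transcript of 12193 nt, of which 5 were called in all libraries. MGA region 1, in exon 2, stood at 82.0, 81.8, 63.9, 87.6 and 73.2 in T24 and at 52.7, 67.8, 68.3, 73.3 and 45.0 in T24R2. Of all member regions it came nearest to a lower enrichment in T24R2, by 16.3 ± 7.63 points (SE), with 4 of 5 T24 libraries above 4 of 5 T24R2 libraries. That difference did not pass (limma adjusted p = 0.372; exact permutation test, two-sided, p = 0.0556).

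MGA region 2, in exon 3, was called in every library and yet ranked very unevenly. In T24 it stood at 0.821, 19.7, 1.25, 48.5 and 2.74 and in T24R2 at 0.960, 46.7, 1.52, 2.08 and 43.7. In each line 3 libraries held it below 3 and the other 2 well above, so the variation lay within the lines and not between them. MGA region 3, in the same exon, was scattered in T24 (74.9, 14.1, 75.3, 11.2 and 15.5) and closer together in T24R2 (22.7, 61.4, 54.4, 43.4 and 45.9).

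Towards the 3′ end, MGA region 10 in exon 17 stood at 59.8, 19.7, 79.9, 92.5 and 73.2 in T24 and at 28.2, 59.3, 11.2, 59.4 and 86.4 in T24R2. MGA region 12, in the last exon with 10 coding and 5 3′UTR summits, stood at 44.8, 86.0, 98.5, 88.2 and 65.5 in T24 and at 93.1, 62.5, 66.9, 48.0 and 76.1 in T24R2. The lines overlapped in both.

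Of the MGA regions that were not constant, region 6 in coding exon 13 (chr15:41736421-41736657) was absent from T24 and called in 4 T24R2 libraries, at percentiles 10.9, 19.7, 51.8 and 62.8 in T24R2 replicates 2 to 5. Its 4 summits fell within nt 4454 to 4470 of the transcript. Fisher's exact test (two-sided) gave p = 0.0476, and the adjusted value was 0.517. Region 5, in exon 9, was called in T24 replicates 2, 3 and 5 at 21.9, 8.97 and 10.0 and in all T24R2 libraries at 5.92, 97.3, 45.7, 51.9 and 10.8. Region 11 was called in 3 libraries of each line, but its exonic summits, at the start of exon 18, came from T24 only (3 libraries), while the 3 T24R2 summits lay outside the exon.

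**Figure D3:**
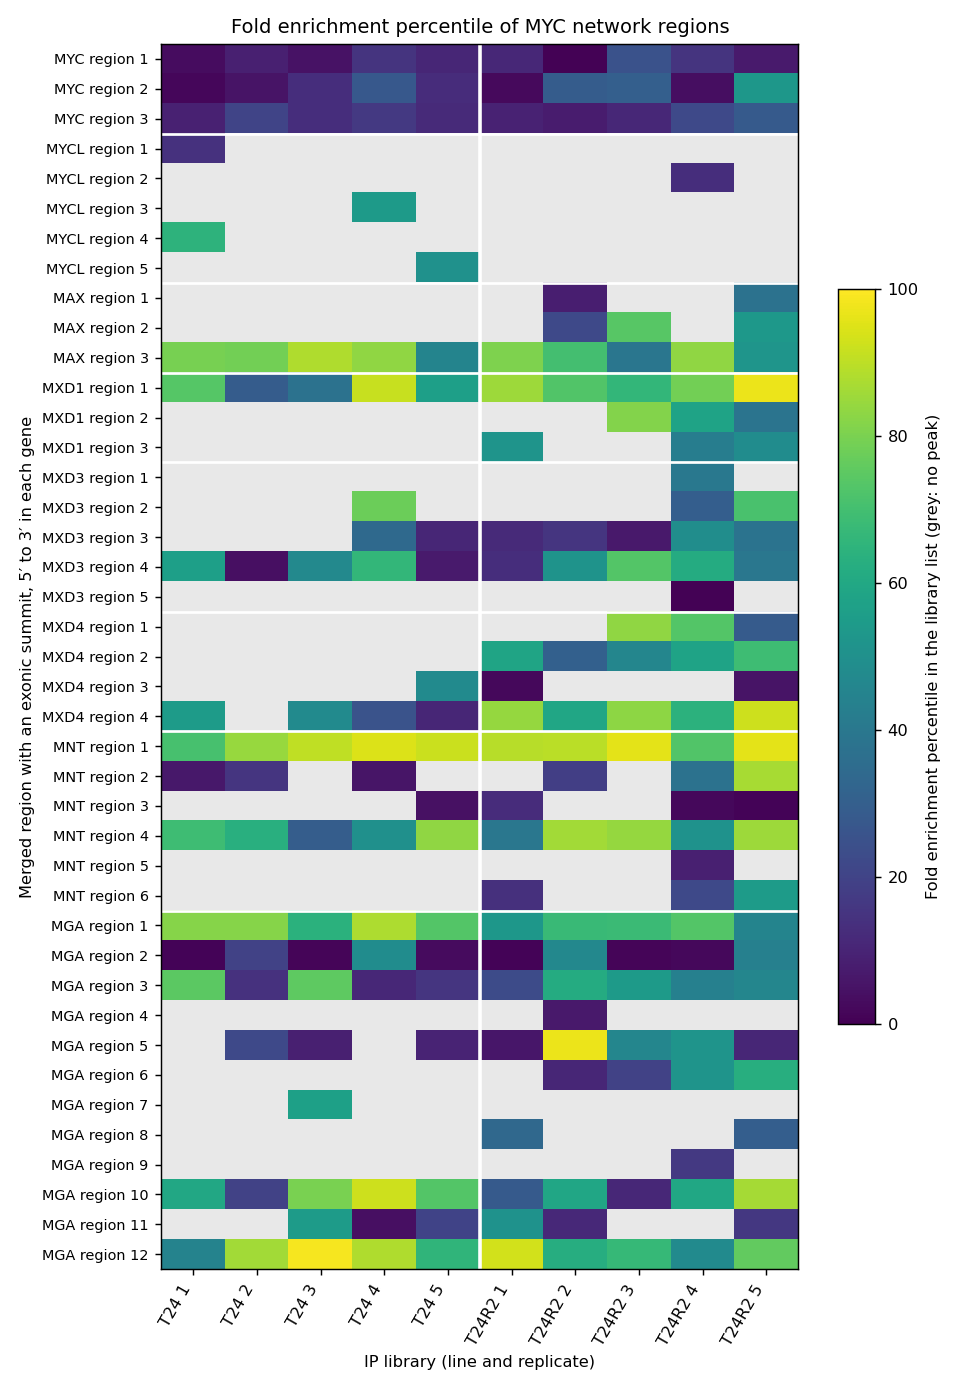
Rows are the 41 member regions, 5′ to 3′ within each gene, and columns the 10 IP libraries, with T24 left and T24R2 right of the white line. Colour is the fold enrichment percentile in the library's own list (0 to 100) and grey means no peak; MXD4 region 2 is grey in all 5 T24 libraries and coloured in all 5 T24R2 libraries.

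Across the network, 13 of the 41 regions (31.7%) were called in all 10 libraries, against 29.6% of all exonic regions. In only 1 library 11 regions (26.8%) were called, against 21.6% of exonic regions and 27.9% of all merged regions. Unadjusted Fisher's exact tests passed 0.05 in 2 of the 41 member regions, MXD4 region 2 and MGA region 6, both called more often in T24R2. That share is read against 9.21% of all merged regions (8.37% of exonic regions) at the same threshold in either direction and 7.11% (6.43%) in the direction of T24R2, and 0 regions passed after adjustment anywhere in the series.

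The members leaned towards T24R2 in their partly called regions, as the series did. Of the 41 regions, 15 were absent from T24 and 5 from T24R2, and all of those 5 were single-library calls. The shares of all regions absent from each line were not computed, so these counts stand without a background. Called in at least 3 T24R2 and 0 T24 libraries were 7 regions (MAX region 2, MXD1 regions 2 and 3, MXD4 regions 1 and 2, MNT region 6 and MGA region 6), and 0 had the opposite pattern, where the background was 7.93% and 2.54% of exonic regions (9.14% and 2.91% of all merged regions). The 7 fell to 1, MXD4 region 2 with 3 T24R2 libraries left, when the lists were reduced to equal length. The lean of the series then also shrank, to 1117 exonic regions with that pattern and 936 with the opposite one among the 22604 left. They also fell to 2 without T24R2 replicate 5, the longest list, to 3 without replicate 4 and to 4 without replicate 3. Of the 15 regions absent from T24, T24R2 replicates 4 and 5 held 11 and 9, and replicates 1, 2 and 3 held 4, 5 and 5. When a library had to cover 50% of a region with peaks to count, 3 of the 41 passed the unadjusted test (MXD1 region 1, MXD4 region 4 and MNT region 4, all in the direction of T24R2), against 8.24% of all regions, 7.05% in that direction, and MXD4 region 2 and MGA region 6 no longer did.

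Among the 13 constant regions no difference in percentile passed the test (0 by limma after adjustment, 0 at an unadjusted limma or exact permutation p under 0.05), where 0.898% of all 9577 tested regions passed limma after adjustment (0.731% higher and 0.167% lower in T24R2) and 13.9% had an unadjusted p under 0.05. Over all tested regions the percentile was higher in T24R2 by a median of 4.84 points, and over the 13 members by a median of 3.18 points. The differences given for single regions are T24R2 minus T24 without subtraction of that shift, so the positive differences of MYC regions 1 and 3, MNT region 1 and MGA region 2 are smaller than the shift of the series. The smallest adjusted p among the members was 0.372. The median SE of a difference was 10.8 points over all regions, and a p that misses the threshold does not show that the lines are alike. In none of the 13 did the libraries of the 2 lines fall into separate ranges, as they did in 4.5% of all tested regions.

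**Figure D4:**
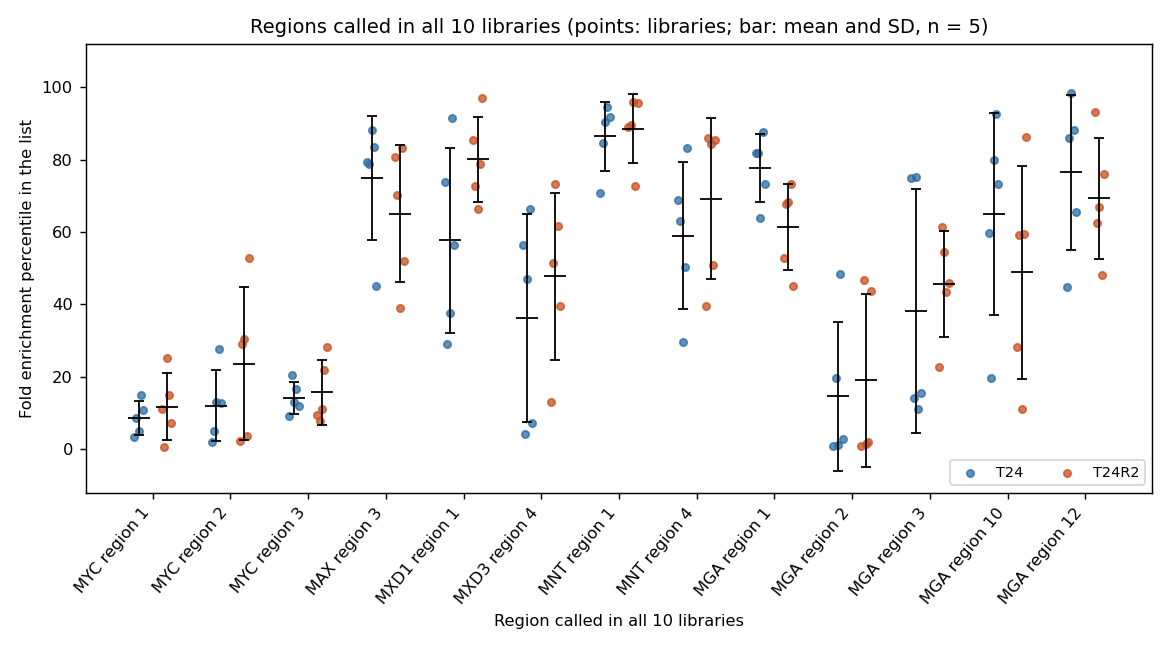
Points are the fold enrichment percentiles of the 13 member regions called in all 10 libraries (blue, T24; orange, T24R2), with bars for the mean and SD of the 5 libraries of each line. The lines overlap in every region, and the largest differences relative to their SE are those of MGA region 1 (lower in T24R2 by a mean of 16.3 points, with SE 7.63) and MXD1 region 1 (higher by 22.4, with SE 11.7).

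The number of exonic peaks per library gave a second view of the same calls, chosen after the region values had been seen. For MXD4 it recounts the peaks of regions 1 and 2, which were called in T24R2 alone, so it is not separate evidence. Region 2 is intronic on the representative transcript. MXD4 had 1, 0, 2, 1 and 3 exonic peaks in T24 and 4, 3, 5, 5 and 5 in T24R2, which met only at 3. The means were 1.40 ± 1.14 and 4.40 ± 0.894 (SD, n = 5; exact permutation test, two-sided, p = 0.0159), and with equal list lengths they were 1.00 ± 0.707 and 2.80 ± 0.837 (exact p = 0.0238). MXD1 had 1, 0, 1, 1 and 1 peaks in T24 and 2, 1, 2, 3 and 3 in T24R2 (exact p = 0.0397), a difference that no longer passed with equal list lengths (0.800 ± 0.447 against 1.40 ± 0.548, exact p = 0.278).

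The other 6 genes with peaks did not pass, MYC with 3 or 4 peaks in every library of both lines among them. So 2 of 8 members had an unadjusted p under 0.05, both with more peaks in T24R2, against 13.9% of the 13976 genes tested (10.4% with more in T24R2). With equal list lengths the share over all genes was 10.8% (5.38% with more in T24R2). After adjustment 0 genes passed, with adjusted p = 0.249 for MXD4 and 0.342 for MXD1. With equal list lengths the adjusted exact permutation p of MXD4 was 0.436.

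Peaks also covered more of several regions in T24R2, a comparison likewise added after the values were seen. MNT region 4 spans the end of the coding sequence and overlaps the unnamed gene on the opposite strand. There the peaks of a library covered 37.7%, 45.3%, 37.3%, 48.1% and 44.2% of the merged region in T24. In T24R2 they covered 91.0%, 88.4%, 59.4%, 91.5% and 77.1% of it. In MXD1 region 1 they covered 32.2%, 25.4%, 32.8%, 37.2% and 17.4% in T24 and 47.9%, 52.5%, 60.5%, 70.3% and 82.6% in T24R2. In both regions every T24R2 library lay above every T24 library (exact permutation test, two-sided, p = 0.00794, adjusted p = 0.0692 over 9577 regions, which is the smallest value any region reached).

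MYC regions 1 and 2 and MGA region 12 also had an unadjusted exact p under 0.05, so that 5 of 13 members did, but so did 31.8% of all 9577 regions (30.2% with more cover in T24R2). In each of these 3 regions leaving out some single library ended the call (exact permutation p of 0.0556 to 0.0635), T24 replicate 2 or 5 or T24R2 replicate 1, 4 or 5 for MYC region 1, T24 replicate 1, 2 or 5 for MYC region 2, and T24R2 replicate 1, 2 or 5 for MGA region 12. With lists of equal length the difference of MYC region 1 went from 23.3 to 1.77 points (exact permutation p = 0.952). Cover was higher in T24R2 in 86.9% of all tested regions, by a median of 12.5 points, and the members' median was 13.4 points. Separate ranges of the 2 lines were seen in 2 of the 13 members and in 11.5% of all tested regions. MNT region 1 did not share the shift, with 86.6% ± 4.83 covered in T24 and 86.8% ± 3.70 in T24R2 (SD, n = 5).

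**Figure D5:**
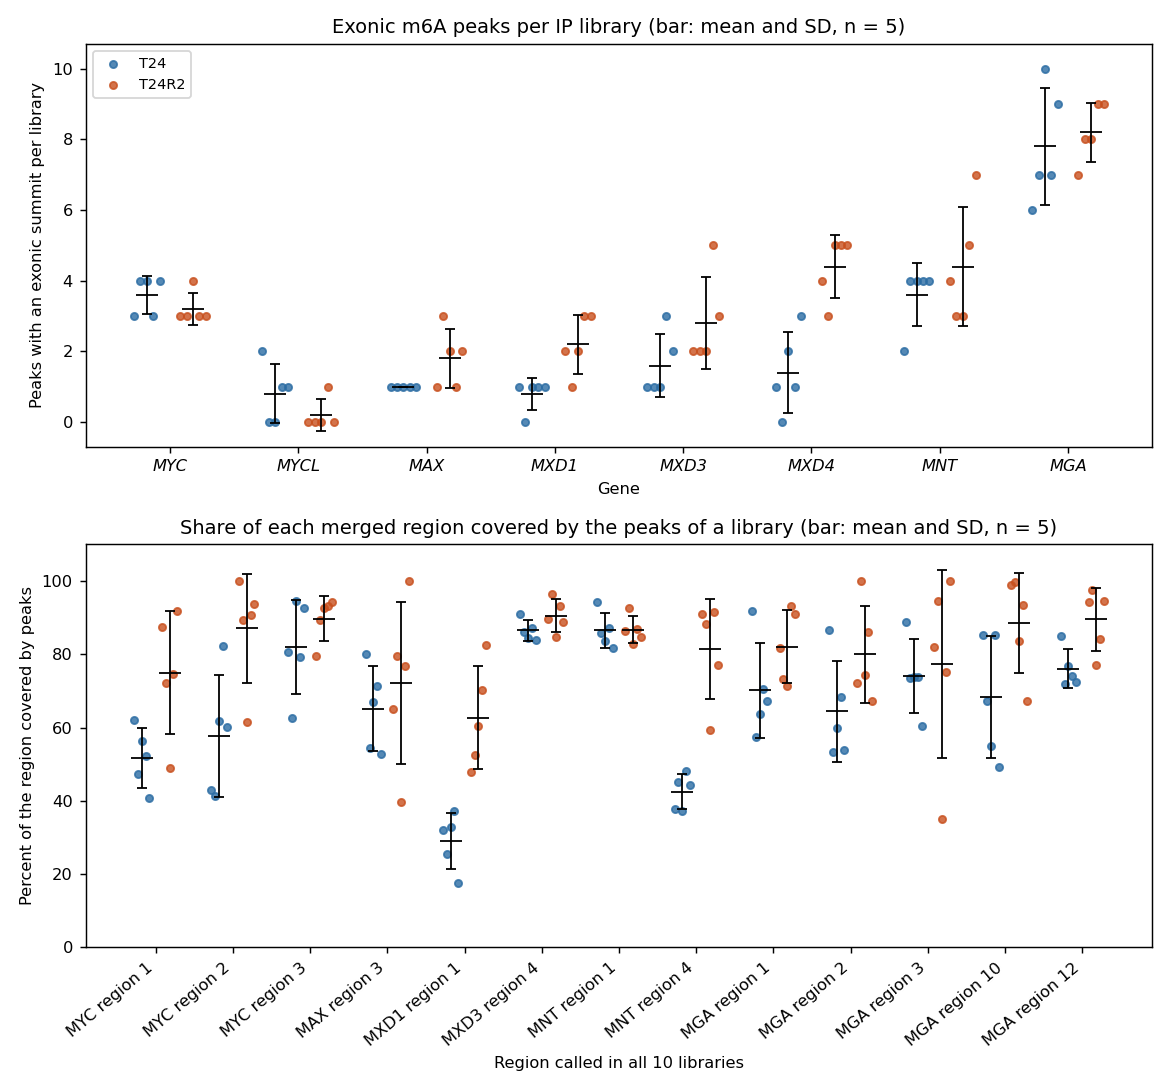
The upper panel plots the number of exonic peaks per library for the 8 genes with any, and the lower panel the percent of each constant region covered by a library's peaks, with T24 in blue, T24R2 in orange and bars for the mean and SD (n = 5). MXD4 has 0 to 3 peaks in T24 and 3 to 5 in T24R2, and the T24 and T24R2 points are apart in MNT region 4 and MXD1 region 1.

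At the level of the gene, MYC, MAX, MXD3, MNT and MGA had an exonic peak in all 10 libraries, that is 5 of the 8 members with any exonic peak, where 45.5% of the 13976 genes with any exonic peak did. MXD1 and MXD4 lacked one in T24 replicate 2 alone, the shortest list. Without that library 7 members had a peak in every library, and on representative transcripts alone only MYC, MNT and MGA did. No member's presence differed between the lines by Fisher's exact test, at 8.94% of genes with an unadjusted p under 0.05.

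On the representative transcripts, 205 of the 239 summits could be placed. Coding sequence held 145 (70.7%), the 3′UTR 46 (22.4%) and the 5′UTR 14 (6.83%), where the shares over all 145243 summits on representative coding transcripts were 60.4%, 32.5% and 7.11%. MGA, whose coding sequence runs from nt 189 to 9533, gave 80 of the 205 summits. Only 5 of its summits, in MGA region 12, lay outside coding sequence. The shares therefore weigh MGA most, and they count a site once for each library. By line, the 3′UTR held 21.1% of 90 summits in T24 and 23.5% of 115 in T24R2. The network as a whole held 17, 17, 23, 21 and 25 exonic peaks in the T24 libraries and 23, 23, 26, 32 and 32 in the T24R2 libraries. Per 10000 peaks of the list these were 8.41 to 12.1 in T24 and 9.60 to 12.5 in T24R2, ranges that overlapped.

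A wider list of 65 genes that act with or downstream of MYC (MAX-like factors, cofactors such as TRRAP and EP400, SIN3 and NCOR corepressors, PRC1.6 partners of MGA, regulators of MYC stability such as FBXW7 and HUWE1, other interactors and targets) was examined by counts. Of these, 44 carried an exonic peak and 26 of the 44 carried one in all 10 libraries (45.5% of all genes with an exonic peak did), over 167 regions. Unadjusted Fisher's exact tests passed in 6 of the 167 regions, where 8.37% of all exonic regions passed. After adjustment 0 passed, and no region of the series could. Called in all libraries of 1 line and none of the other were 0 regions, against 2.56% of exonic regions for T24R2 and 1.04% for T24. Of the 45 regions tested by limma 0 passed after adjustment, against 0.898% of all tested regions. The 10 regulators of MYC stability all carried a peak and 7 of them did so in every library. Of 18 MYC targets 9 carried a peak and 1 did in every library. For cofactors these counts were 11 and 9 of 13, and for corepressors 4 and 4 of 6. For PRC1.6 partners they were 4 and 2 of 7, for MAX-like factors 2 and 0 of 3, and for other interactors 4 and 3 of 8. No test compared the lists.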

How the data were processed

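MeRIP-seq was done on T24 and T24R2 cells, and 10 IP peak lists with 1 merged region list were used; the 10 input libraries entered only through the peak calls. The authors aligned reads to hg38 with STAR (version 2.7.0) and GENCODE release 39, kept uniquely mapped reads with SAMtools (1.10) and called peaks in each library against input with MACS2, for which the submitters' processing notes list version 3.0.0a6; whether that number belongs to MACS2 or MACS3 is not settled. The deposited lists give, per peak, the fold enrichment (a ratio of IP over input), −log10 p and −log10 q values, and a score that the authors' caller derives from the q value. They hold no counts, so no count model was used. The deposited merged list was taken as the set of regions.

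Summits were placed in exons of GENCODE release 44 (hg38) with bedtools 2.31.1, and the representative transcript was MANE Select or Ensembl canonical. Fold enrichment was ranked within each list, and the highest peak of a region was used. Region and gene presence were compared with two-sided Fisher's exact tests, percentiles of regions called in all 10 libraries with limma 3.58.1 in R 4.3.3, and single values with exact permutation tests (252 assignments, smallest p 0.00794), each with Benjamini-Hochberg adjustment over all regions or genes at 0.05. The limma step was tested on simulated data with normal spread, where shifts were planted in 200 of 9577 regions and nowhere else. There limma called, after adjustment, 2% of planted shifts of 20 points and 29% of planted shifts of 40 points. A region can therefore differ by such an amount and not pass. Differences are T24R2 minus T24. All 10 members are named, with values for regions holding an exonic summit in at least 3 libraries of a line. The members and lists were chosen with earlier results of these data known.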

Additional observations from a re-analysis of the deposited data

Results flagged for a closer look

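Among 32 groups of 4 or 5 library values of member regions, 1 held a value far from the others by Dixon's criterion, where chance gives about 1 in 20. MAX region 3 in T24 replicate 5 stood at percentile 45.0, while the other 4 T24 libraries stood between 78.9 and 88.2. Its cause was not tested.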

How the results depend on the processing

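Member regions with an unadjusted Fisher p under 0.05 numbered 2 in the reported analysis, 1 at −log10 q of at least 5, 0 at −log10 q of at least 10 and 0 with lists of equal length, where fewer peaks remain. Leaving out 1 library gave 2 to 6, the higher counts arising without T24R2 replicate 1 (5), 2 (6) or 3 (4), where 3 of 4 against 0 of 5 already passes. Of the member regions 0 passed after adjustment in any of these, where the smallest possible Fisher p was again 0.00794. When peaks had to cover 50% of the region, 3 regions passed (MXD1 region 1, MXD4 region 4 and MNT region 4) and MXD4 region 2 and MGA region 6 did not (Fisher's exact p = 0.444 and 0.167). Members with a peak in all libraries numbered 5 in the reported analysis, 2 at −log10 q of at least 10, 3 on representative transcripts and 5 to 7 when 1 library was left out. Member regions past limma numbered 0 in all 20 alternatives, including the exact permutation test, with smallest adjusted p between 0.112 and 0.597. By the exact permutation test 0 of all 9577 regions passed after adjustment, so that alternative called no region of any kind. By exact p, 0 of 13 passed in the reported analysis and 0 to 1 when 1 library was left out (MGA region 1 without T24 replicate 3 or T24R2 replicate 4, MXD1 region 1 without T24 replicate 4). Of the 242 alternative values of the 13 percentile differences, 227 kept the reported sign; the median over the 13 was −0.98 points when percentiles were taken among constant regions only, which also brought the median over all regions to 0.07.

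The replicate numbers did not pair the libraries: same-number correlations ran from −0.03 to 0.11, different-number ones from −0.13 to 0.14, and 2 of 10 libraries correlated best with their own number. With the replicate block, 0 member regions passed the presence test, whose smallest possible p is then 0.0625, and 0 passed limma, for which the calls over all regions also went from 86 to 0. Depth is unknown, and list length differs between the lines. The comparison of cover changed little for MXD1 region 1 and MNT region 4 (exact p of at most 0.0397 in each alternative), whereas MYC region 1 fell from 23.3 to 1.77 points with lists of equal length. The comparisons of exonic peak number and cover, and the count of regions in at least 3 T24R2 and 0 T24 libraries, were chosen after seeing the data.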
